A study of Mus musculus with 20 samples.

Results

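Primitive endoderm secretes the basement membrane on which the early mouse embryo is built, and 9 genes of that membrane were followed here at the chromatin level: Lama1, Lamb1, Lamc1, Col4a1, Col4a2, Nid1, Nid2, Hspg2 and Sparc. The regions examined were those GATA6-bound regions whose midpoint lay within 100 kb of the start of one of these genes, by GENCODE vM21 on mm10. There were 116 such regions of 42403 in all. Lamc1 had 26 of them, Lama1 19, Lamb1 15, Hspg2 13, Nid2 12, Sparc 10 and Nid1 3. Col4a1 and Col4a2, whose starts lie 21 bases apart on opposite strands, shared 18 regions, so that the 9 genes made 8 windows. Distances carry a sign, positive within the direction of transcription and negative upstream. In the shared window the sign follows Col4a1, so that negative positions lie inside Col4a2. Proximity to a gene start does not show that a region acts on that gene. For 90 of the 116 regions a gene of the list had the nearest start of any protein-coding gene, and for the other 26 another gene did.

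ATAC-seq reads the exposure of DNA to the Tn5 transposase. KH2 mouse ES cells (C57BL/6 x 129/Sv), all with a cassette from which doxycycline induces Gata6, were sampled untreated (d0) and under 1 ug/mL doxycycline in the groups titled 8h, 16h, d1, d2 and d4, with 3 samples each and 2 at d4. XEN cells, 3 samples of the untreated wild type X10 line from CD1 mice, were grown without LIF, so that the stage of these cells cannot be told apart from strain, line and medium. All cultures were grown on fibroblast feeders. The study's methods describe adsorbing feeders away for RNA-seq and ChIP-seq, and their ATAC-seq section does not mention this step. The treatment field of the labels lists 16, 24, 48 and 72 h for the groups titled 8h, 16h, d1 and d2, and the titles are used here. Each group is given in the deposited table as an average in RPM (read counts scaled to library size), with no replicate spread. At 85 of the 116 regions the reads of 16 single libraries could be recovered from these averages, from all groups but d0, and only there is a test possible. The Lama1 and Nid2 windows have averages alone. The libraries held 181 to 288 M reads, except for a XEN library of 43.3 M, and the XEN average resolved into 2 libraries. In the 85 regions they held 3388 to 14361 reads, and 1074 in the smaller XEN library.

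A basement membrane is a thin sheet of laminin and type IV collagen. Laminin is a trimer of an alpha, a beta and a gamma chain, and the chains encoded by Lama1, Lamb1 and Lamc1 form the laminin of the early embryo. The alpha1 and alpha2 chains of type IV collagen, from Col4a1 and Col4a2, form the collagen network. Nidogens (Nid1, Nid2) and perlecan (Hspg2) link the networks, and SPARC is a collagen-binding glycoprotein. Primitive endoderm and its parietal descendants are known for abundant synthesis of these proteins, and GATA6 is a zinc finger factor that binds GATA motifs and directs this lineage.

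The sequence around the best GATA6 match is shown for the region of largest change from d0 to d4 in each window whose match is recorded at its full 13 bases, since these regions carry the comparison. The most accessible region of the collagen window and a region chosen after its values were seen, because it stayed open in XEN cells, are added. Capitals mark the 13 bases of the match, 54 bases flank it on each side, and each run reads 5′ to 3′ on the strand of the match.
Lama1 -11.8 kb: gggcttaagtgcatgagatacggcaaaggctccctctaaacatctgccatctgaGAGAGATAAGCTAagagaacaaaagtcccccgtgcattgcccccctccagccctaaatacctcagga
Lamb1 -91.8 kb: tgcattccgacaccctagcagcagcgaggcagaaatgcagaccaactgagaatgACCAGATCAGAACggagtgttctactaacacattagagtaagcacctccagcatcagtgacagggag
Lamc1 -23.2 kb: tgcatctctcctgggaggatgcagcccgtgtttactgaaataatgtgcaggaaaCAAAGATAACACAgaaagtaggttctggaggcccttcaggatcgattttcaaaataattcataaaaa
Col4a1/Col4a2 +3.4 kb: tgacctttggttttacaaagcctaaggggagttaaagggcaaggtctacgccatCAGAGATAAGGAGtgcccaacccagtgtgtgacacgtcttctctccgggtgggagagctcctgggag
Col4a1/Col4a2 -2.9 kb: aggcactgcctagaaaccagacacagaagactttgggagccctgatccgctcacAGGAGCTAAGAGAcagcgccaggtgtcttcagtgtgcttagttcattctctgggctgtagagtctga
Col4a1/Col4a2 -54.8 kb: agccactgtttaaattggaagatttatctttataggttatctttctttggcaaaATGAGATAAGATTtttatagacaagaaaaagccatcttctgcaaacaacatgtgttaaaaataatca
Nid1 -4.6 kb: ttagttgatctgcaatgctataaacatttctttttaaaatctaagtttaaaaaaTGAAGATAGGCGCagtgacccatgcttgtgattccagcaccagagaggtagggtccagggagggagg
Sparc -11.1 kb: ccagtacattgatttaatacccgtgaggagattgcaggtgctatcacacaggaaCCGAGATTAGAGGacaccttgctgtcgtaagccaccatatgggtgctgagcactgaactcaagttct
The runs were read from GRCm38.p6 (mm10) at chr17:67685567-67685687 (plus strand) for Lama1 -11.8 kb, chr12:31173626-31173746 (minus strand) for Lamb1 -91.8 kb, chr1:153354306-153354426 (plus strand) for Lamc1 -23.2 kb, chr8:11309337-11309457 (minus strand) for Col4a1/Col4a2 +3.4 kb, chr8:11315291-11315411 (plus strand) for Col4a1/Col4a2 -2.9 kb, chr8:11367600-11367720 (minus strand) for Col4a1/Col4a2 -54.8 kb, chr13:13432996-13433116 (minus strand) for Nid1 -4.6 kb, chr11:55434327-55434447 (plus strand) for Sparc -11.1 kb. In the authors' scan, which gives a match score, the median best GATA6 score was 10.01 at the 104 of 116 regions with a match and 10.18 over all regions with one. Among the regions printed, the score was 13.7 at Col4a1/Col4a2 -54.8 kb, 13.3 at Col4a1/Col4a2 +3.4 kb and 12.5 at Lama1 -11.8 kb, and the capitals of all 3 hold AGATAA. It was 8.31 at Col4a1/Col4a2 -2.9 kb and 6.5 at Nid1 -4.6 kb. Hence regions of large change had both high and low scores. In the 201 bases centred on each region's midpoint, AGATAA on either strand was present in 38.8% of the 116 regions and in 46.4% of all 42403. The corresponding shares were 17.2% and 20.4% for ACAATG, a core bound by SOX factors, and 3.45% and 9.10% for both together. A match of letters is not a binding site, and these shares describe the window searched.

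Of the 116 regions, 67 had their midpoint in an intron of a protein-coding gene, 43 were intergenic, 3 lay in a coding exon, 2 in a non-coding gene and 1, at the start of Lamb1, in a UTR. They were broader than the average region, with a median width of 694 bp against 524 bp. By the deposited classes of GATA6 binding over time, 51 were Early&Constant (44.0%, against 11875 of the 42403 regions in all), 46 Late (39.7%, against 33.6%) and 19 Transient (16.4%, against 38.4%). A SOX17 peak was recorded at 84 (72.4%, against 44.5%). SOX17 is an endoderm factor. One or more of OCT4, SOX2 and ESRRB, the pluripotency TFs (PTF), occupied 26 regions at d0 (22.4%, against 20.8%) and only after induction at 33 (28.4%, against 16.6%). By the authors' class of accessibility at d0, 69 were closed (59.5%, against 61.3%), 41 moderate (35.3%, against 31.2%) and 6 accessible (5.17%, against 7.43%). These shares are descriptions of a chosen set, and neighbouring regions are not independent.

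To ask when the windows opened, the averaged columns were set against d0. In RPM, the median of the 116 regions was 0.125 in untreated cells, 0.126 at 8h, 0.147 at 16h, 0.177 at d1, 0.308 at d2, 0.334 at d4 and 0.178 in XEN cells. Over all 42403 regions it was 0.0777 in untreated cells, 0.161 at d2, 0.129 at d4 and 0.121 in XEN cells. Per kb of region, which removes the effect of width, the medians of the 116 were 0.179 RPM at d0 and 0.470 RPM at d4, and that of all regions was 0.142 RPM at d0 and 0.303 RPM at its highest, at d2. Hence the typical basement membrane region stood above the typical GATA6 region already in untreated cells, per kb as well. The gap was wider at d4, when the 42403 regions had a median of 0.250 RPM per kb. At 8h and at 16h no region of the 116 was past 2-fold. At d1, 7 were more than 2-fold higher (4.55% of all regions were), on a scale of log2(RPM + 0.03). At d2 there were 58, or 50%, against a background of 36.8%. At d4, 56 were higher, against a background of 31%, and 2 were lower, against 7.27%. The median log2 change at d4 was 0.96, against 0.52 over all regions. These averages have no replicate check.

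**Figure D1:**
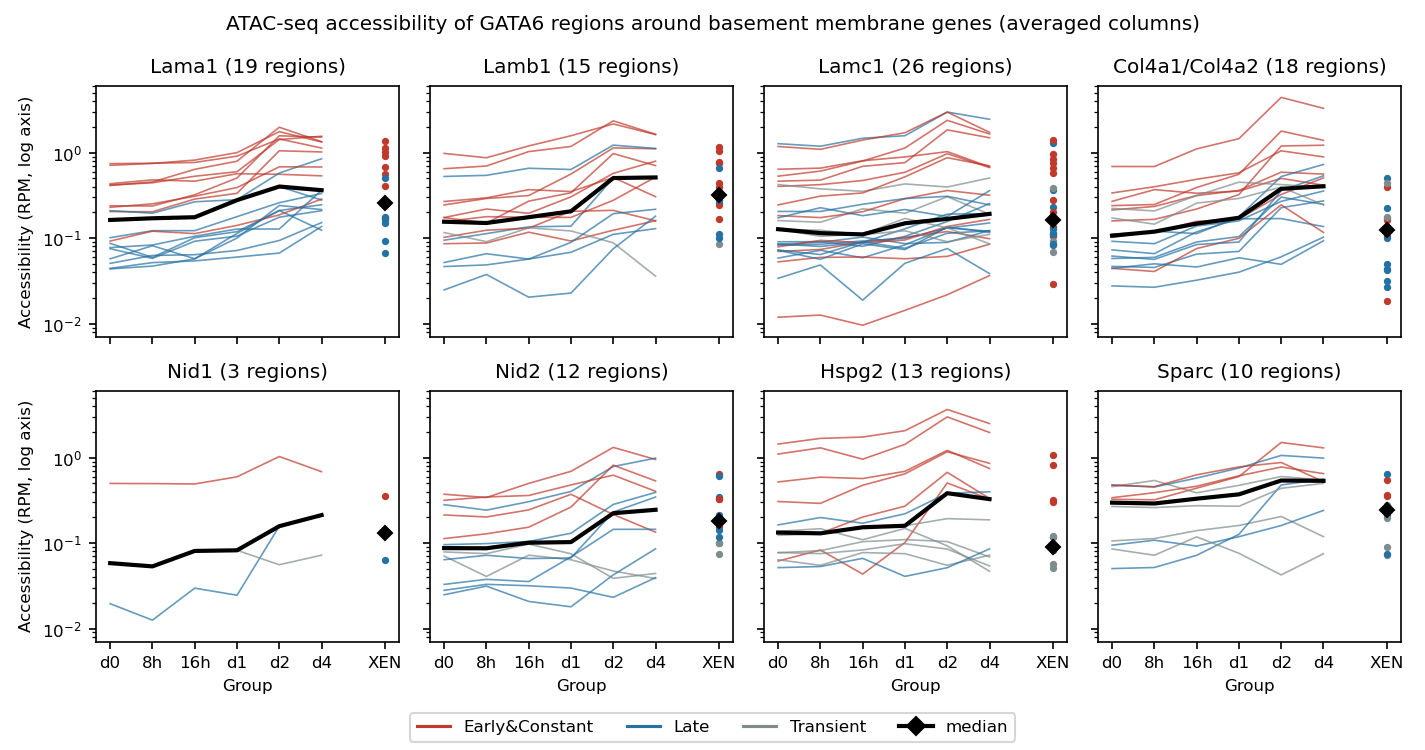
Accessibility in RPM (log axis) of each region in the 8 windows, by group, from the averaged columns. Lines are single regions coloured by class of GATA6 binding, the thick line and diamond are window medians, and points on the right are XEN cells. The Col4a1/Col4a2 median goes from 0.107 RPM at d0 to 0.405 RPM at d4 and is at 0.124 RPM in XEN cells.

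The recovered libraries were tested against 8h, with limma on log2(RPM + 0.03) over all 24999 recovered regions, and a region was called where the adjusted p was below 0.05 and the log2 change exceeded 1 in size. At 16h none of the 85 regions was called, against a background of 0.008% of all regions. An unadjusted p under 0.05 was found at 4 of the 85 and at 1613 of all 24999. At d1, 6 rose, against a background of 5.97%, which is close to their share of 7.06%. Without a single library of 8h or d1 this count ranged from 0 to 14. Of these, 4 lay in the collagen window and the others were Lamb1 -43.7 kb and Hspg2 -11.2 kb. At d2, 40 of 85 rose, against a background of 36.8%, and none fell. At d4, 36 rose, against 30.5%, and 1 fell, against 6.57%. Without the collagen window, a split added after the data were seen, 25 of 67 rose at d2 and 23 at d4, against the same backgrounds. In the averages against d0, 45.9% of the 98 regions outside that window were more than 2-fold higher at d2 and 44.9% at d4. The backgrounds there were 36.8% and 31%. The estimate was above 0 at 79 of the 85 regions at d2 and at 78 at d4. Over all recovered regions the median estimate was above 0 too, at 0.67 and 0.50, and the share above 0 was not counted. All libraries of d2 stood above all libraries of 8h at 60% of the 85 regions, against 50.1% of all regions, and for d4 the shares were 69.4% and 48.6%.

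Accessibility rose over all GATA6 regions, and the scaling decides how much of the rise is counted. The median log2 change over all recovered regions was 0.67 at d2 and 0.50 at d4, and over the 85 it was 0.97 and 0.80. With each library centred on its median, 18 of the 85 regions rose and 4 fell at d2, with 14% and 13.6% of all regions doing so. At d4, 20 rose and 2 fell after centring, with 16.2% and 15.6% of all regions doing so, and no region was called at d1. A measure that needs no library size is the share of reads. The 85 regions held 0.549%, 0.564% and 0.571% of the reads of all recovered regions in the 3 libraries of 8h. They held 0.597%, 0.591% and 0.617% at 16h and 0.574%, 0.566% and 0.628% at d1. At d2 the shares were 0.658%, 0.695% and 0.694%, and at d4 they were 0.751% and 0.735%. In XEN cells they were 0.567% and 0.523%, with 95% exact binomial intervals of 0.554 to 0.579% and 0.492 to 0.555%, which cover counting error only. Every library of d2 and d4 lay above every library of the earlier groups, and the XEN libraries lay within or below the range of 8h.

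**Figure D2:**
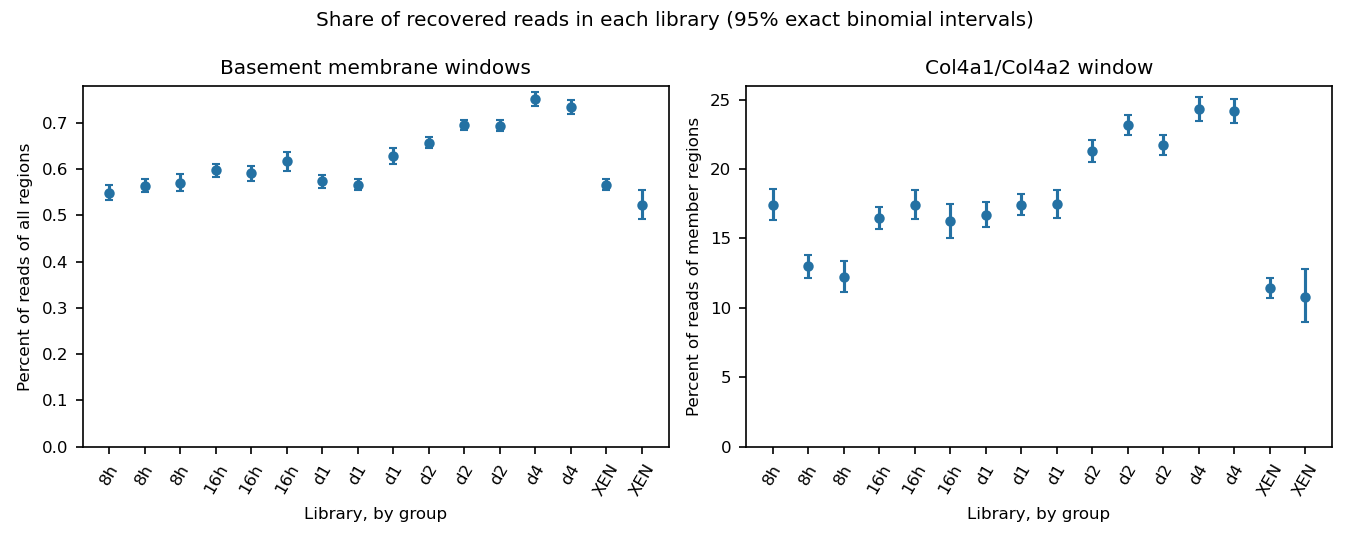
Left, percent of the reads of all 24999 recovered regions that fell in the 85 basement membrane regions; right, percent of the reads of these 85 regions that fell in the 18 of the Col4a1/Col4a2 window. Each point is a library with its 95% exact binomial interval, and libraries are ordered by group. The left share goes from 0.549 to 0.571% at 8h to 0.735 and 0.751% at d4.

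The collagen window changed most by its summed accessibility. Its 18 regions together held 2.97 RPM at d0, 12.96 RPM at d2 and 11.6 RPM at d4, 3.89 times the level at d0, against 1.66 times for all regions. The region closest to the shared start had its midpoint 2.9 kb away. In the test, 15 of the 18 rose at d2 and 13 at d4, against 36.8% and 30.5% of all regions. After centring 8 and 9 did so, against 14% and 16.2%. All 18 were in introns of the collagen genes, and each was of the class closed at d0, which held 61.3% of all regions.

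The highest region of the window, in an intron of Col4a1 at +3.4 kb (Early&Constant, bound by PTF at d0 and by SOX17), stood at 0.741, 0.874 and 0.456 RPM in the libraries of 8h. It was at 0.956, 2.09 and 1.35 RPM at d1, at 3.35, 5.65 and 4.35 RPM at d2 and at 3.11 and 3.52 RPM at d4. All libraries of d1, d2 and d4 were above all of 8h. The log2 change against 8h was 1.03 ± 0.32 at d1 (SE, limma, adjusted p = 0.027), 2.65 ± 0.32 at d2 (adjusted p = 7.3e-15) and 2.26 ± 0.36 at d4 (adjusted p = 7.7e-09). After centring the d1 change was 0.69 (adjusted p = 0.11), so that this call at d1 rests on the scaling, and the d4 change was 1.74.

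The region nearest the shared start, in an intron of Col4a2 at -2.9 kb and with the largest change of the window, stood at 0.206, 0.235 and 0.057 RPM at 8h. It was at 0.769, 1.44 and 1.39 RPM at d2 and at 1.2 and 1.25 RPM at d4, with no overlap between 8h and either. The log2 change was 2.84 ± 0.36 at d4 (limma, adjusted p = 3.8e-13). Its neighbour at -4.7 kb rose by a log2 change of 2.42 ± 0.36 (limma, adjusted p = 6.1e-10). Farther into Col4a2, the Late region at -54.8 kb went from 0.0938, 0.0376 and 0.038 RPM at 8h to 0.648 and 0.428 RPM at d4, a log2 change of 2.75 ± 0.36 (limma, adjusted p = 1.9e-12).

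**Figure D3:**
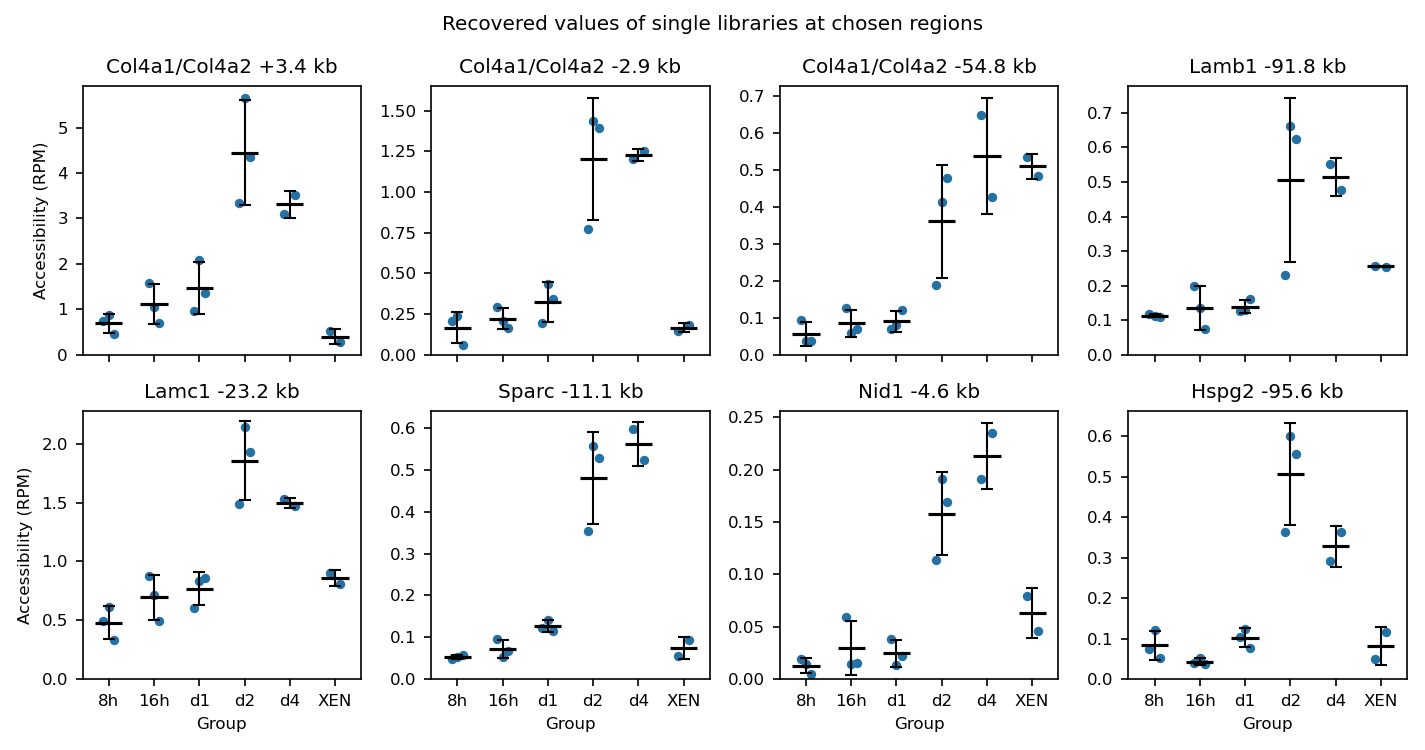
RPM of single libraries (points) at 8 regions with recovered reads, by group, with the mean (bar) and SD (whiskers); d4 and XEN have 2 libraries and the other groups 3, and axes start at 0. At Col4a1/Col4a2 +3.4 kb the libraries of d4 are at 3.11 and 3.52 RPM and those of XEN cells at 0.513 and 0.277 RPM, while at Col4a1/Col4a2 -54.8 kb they are at 0.648 and 0.428 RPM and at 0.534 and 0.485 RPM.

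Among the laminin genes, the windows of Lama1 and Lamb1 had more regions past 2-fold at d4 than that of Lamc1. For Lama1, which encodes the alpha chain, only averages can be given: 15 of its 19 regions were more than 2-fold higher at d4 and none lower. Of all regions 31% were higher and 7.27% lower. The region with the largest change, Lama1 -11.8 kb (intergenic, Early&Constant), had 0.240 RPM at d0, 0.507 RPM at d1, 1.58 RPM at d2, 1.53 RPM at d4 and 1.13 RPM in XEN cells, a log2 change of 2.53 at d4. At Lama1 -0.1 kb, the region at the start itself, the values were 0.746 RPM at d0, 1.45 RPM at d2 and 1.14 RPM at d4, a log2 change of 0.59 at d4, and the highest region, Lama1 -2.8 kb, had 0.713, 1.77 and 1.34 RPM. Thus the start was already open and distal regions showed the larger ratios.

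For Lamb1, which encodes the beta chain, 8 of 15 regions rose at d2 and 9 at d4, against 36.8% and 30.5% of all regions. After centring 2 rose at d2, near the 14% of all regions. At d4, 6 rose and 1 fell after centring, against 16.2% and 15.6%. Lamb1 -91.8 kb, in overlapping non-coding genes (6030469F06Rik, Gm48112), stood at 0.117, 0.113 and 0.109 RPM at 8h, at 0.232, 0.662 and 0.625 RPM at d2 and at 0.553 and 0.476 RPM at d4, with no overlap. The log2 change at d4 was 1.92 ± 0.36 (limma, adjusted p = 9.9e-07). At the start, Lamb1 +0.1 kb had 0.511, 0.799 and 0.323 RPM at 8h and 1.14 and 1.11 RPM at d4. Its log2 change at d4 was 1.09 ± 0.36 (limma, adjusted p = 0.0076), and 0.57 after centring (adjusted p = 0.098), and it was not called without the third library of 8h or either of d4. The highest region, Lamb1 -40.1 kb, had a log2 change of 0.91 ± 0.36 at d4 and was not called. Lamb1 +43.0 kb, in an intron, was the only one of the 85 regions to rise between d2 and d4, from 0.0524, 0.0619 and 0.111 RPM to 0.191 and 0.171 RPM (limma, log2 change 1.04 ± 0.36, adjusted p = 0.036). Of the 5 libraries compared, it was still called only when the third of d2 was left out. The background was 2.09% higher and 10.1% lower between d2 and d4, and none of the 85 fell.

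For Lamc1, which encodes the gamma chain, 7 of 26 regions rose at d2 and 6 at d4, shares below the 36.8% and 30.5% of all regions. After centring 2 rose and 2 fell at d2, and 1 rose at d4. The median log2 change of its regions at d4 was 0.62 in the averages, against 1.37 for Lama1 and 1.30 for Lamb1. The region at the start, Lamc1 -0.3 kb, was also the highest of the window and of the class accessible at d0. It had 0.961, 1.57 and 1.04 RPM at 8h, 2.25, 3.29 and 3.45 RPM at d2 and 2.32 and 2.62 RPM at d4. The log2 change was 1.32 ± 0.32 at d2 and 1.06 ± 0.36 at d4 (limma, adjusted p = 0.00018 and 0.0097), and 0.54 at d4 after centring (adjusted p = 0.13). The change at d4 was 0.93 without the first library of 8h, 0.98 without the third and 0.97 without the second of d4, and it was not called in these fits. An intergenic region upstream, Lamc1 -23.2 kb, went from 0.492, 0.611 and 0.332 RPM at 8h to 1.53 and 1.47 RPM at d4, a log2 change of 1.63 ± 0.36 (limma, adjusted p = 4.2e-05).

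The linkers and SPARC had fewer regions. Of the 10 Sparc regions 3 rose at d2 and 4 at d4, near the 36.8% and 30.5% of all regions. After centring 2 rose and 1 fell at d2, and 2 rose at d4. Sparc -11.1 kb (intergenic, Late, closed at d0) was at 0.0469, 0.0517 and 0.057 RPM at 8h, at 0.354, 0.557 and 0.528 RPM at d2 and at 0.598 and 0.524 RPM at d4. Its log2 change at d4, 2.85 ± 0.36 (limma, adjusted p = 2.8e-13), was the highest estimate among the 85 regions, and it stayed at 2.33 after centring. In introns of the gene, Sparc +8.3 kb rose by a log2 change of 1.96 ± 0.36 (limma, adjusted p = 6.4e-07), whereas Sparc +1.8 kb, nearest the start, had 0.75 ± 0.36 (adjusted p = 0.074) and was not called.

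Nid1 -4.6 kb, one of only 3 regions near Nid1, had 0.0188, 0.0141 and 0.00475 RPM at 8h and 0.191 and 0.235 RPM at d4, a log2 change of 2.52 ± 0.36 (limma, adjusted p = 1.1e-10). The value of 0.00475 RPM is 1 read, and 1 read was added to each region and library. The 8h baseline of this region was thus at or near the floor. At Nid1 +9.5 kb, the highest region, the log2 change was 1.02 ± 0.32 at d2 (adjusted p = 0.0042) and 0.48 ± 0.36 at d4 (limma, adjusted p = 0.28). For Nid2, by averages alone, 7 of 12 regions were more than 2-fold higher at d4, against 31% of all regions. Nid2 +12.5 kb, in a coding exon, had 0.0639 RPM at d0, 0.231 RPM at d2 and 0.346 RPM at d4, and Nid2 +8.5 kb had 0.374, 1.32 and 0.953 RPM. Nid2 +3.9 kb, the closest to the start, is a Transient region with 0.0788 RPM at d0 and 0.0441 RPM at d4.

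At Hspg2, 5 of 13 regions rose at d2 and 3 at d4, near the 36.8% of all regions at d2 and below the 30.5% at d4. After centring 3 rose and 1 fell at d2, and 1 rose and 1 fell at d4. Hspg2 -95.6 kb had 0.075, 0.122 and 0.0522 RPM at 8h, 0.363, 0.6 and 0.557 RPM at d2 and 0.291 and 0.363 RPM at d4 (limma, log2 change at d4 1.70 ± 0.36, adjusted p = 1.8e-05). The highest regions, Hspg2 -19.9 kb and Hspg2 +1.6 kb, rose at d2 by log2 changes of 1.13 ± 0.32 and 1.23 ± 0.32 (limma, adjusted p = 0.0014 and 0.00051), and at d4 had 0.61 and 0.66 and were not called. Hspg2 -7.8 kb, a Transient region bound by PTF at d0, was the only one of the 85 to fall between 8h and d4, from 0.122, 0.226 and 0.0949 RPM to 0.0402 and 0.0534 RPM (limma, log2 change -1.15 ± 0.36, adjusted p = 0.0049). This call was not stable. No region of the 85 was called lower without the second library of 8h or with a pseudocount of 0.15 RPM, and 2 were without the third library of 8h.

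**Figure D4:**
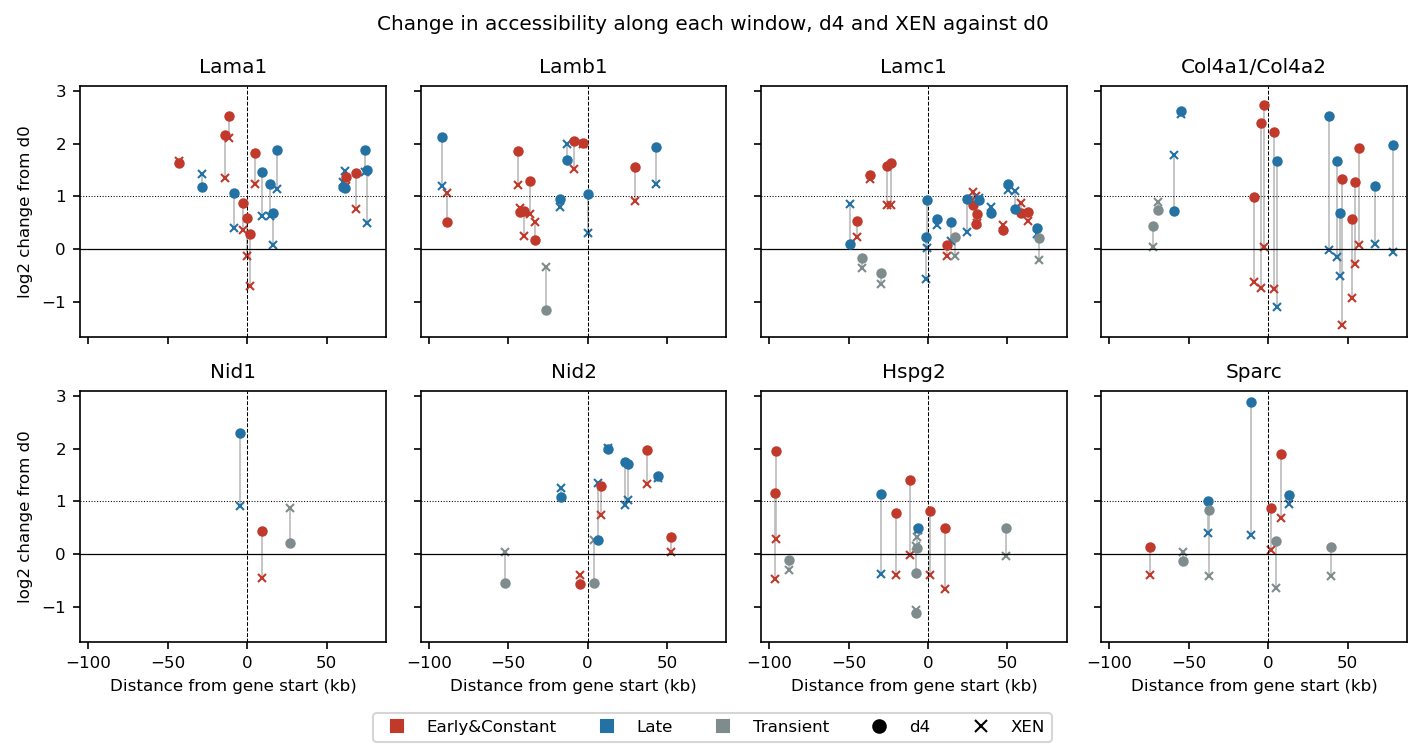
Log2 change from d0, in the averaged columns, at d4 (circles) and in XEN cells (crosses) against the distance from the gene start in kb, coloured by class of GATA6 binding. The dotted line marks 2-fold and grey lines join both values of a region. In the Col4a1/Col4a2 window 12 of 18 circles but 2 of 18 crosses lie above 2-fold, against 15 and 10 of 19 in the Lama1 window.

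The course over time differed by the class of GATA6 binding. Of the 51 Early&Constant regions, 76.5% had their highest value of the time course at d2, close to the 73.2% of all regions of this class. The highest value fell at d4 in 73.9% of the 46 Late regions, against 62.6% of all Late regions. Of the 46 Late regions 30 were more than 2-fold higher at d4, 65.2% against 49.9% of all Late regions. None of the 19 Transient regions was, against 4.42% of all Transient regions. Among regions with PTF at d0, the 26 near basement membrane genes had a median log2 change of 0.75 at d4, and 38.5% were past 2-fold, whereas all 8841 such regions had -0.44 and 10.2%. These sets were not matched for class of GATA6 binding, and the share of each class within them was not counted. With or without PTF, Transient regions made 16.4% of the 116 and 38.4% of all regions. The highest value of the time course came before d2 at 5 of the 26 and at 4545 of the 8841. The part of class in this contrast was not tested. Regions with SOX17 had a median log2 change of 1.21 at d4 (84 regions) and those without 0.43 (32 regions), against 1.13 and 0.11 over all regions. By distance, the medians were 0.88 within 10 kb of the start, 1.00 from 10 to 50 kb and 0.96 beyond 50 kb.

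XEN cells, derived from the extraembryonic endoderm, were compared with d4 to ask how the induced state relates to an established endoderm line. Of the 85 regions 25 were lower in XEN cells (29.4%, against a background of 13.5%) and 1 higher (against 5.48%). Without the collagen window, a split added after the data were seen, 11 of 67 were lower and 0 higher, against the same background. All XEN libraries were below all d4 libraries at 60% of the 85, against 40.2% of all regions. Without the smaller XEN library 16 regions in all were called, without the first or the second of d4 17 and 16, and without the larger XEN library 24. In the averages of all 116, 26 were more than 2-fold lower (background 12.9%) and 2 higher (background 6.83%). Without the collagen window 12 of 98 were lower (12.2%) and 1 higher, so that the excess of lower regions in the averages lay in that window. Against d0, 30 of the 116 were higher in XEN cells, 25.9% against a background of 27.7%, and 3 lower, against 8.83%. After median centring 9 were higher and 13 lower, with 14.4% and 17.8% of all regions doing so, so that the balance of XEN cells against d0 turned with the scaling.

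The calls were unevenly spread over the windows. In the collagen window 14 of 18 regions were lower in XEN cells, in that of Hspg2 7 of 13, in that of Sparc 3 of 10 and in that of Nid1 1 of 3. Single libraries moved these counts. That of Hspg2 was 3 without the smaller XEN library and 4 and 3 without the first and the second of d4. That of Sparc was 1 without either library of d4. That of Nid1 was 0 without the smaller XEN library or the second of d4, and 2 without the larger XEN library. That of the collagen window was 11 or 12 without any 1 of the 4 libraries. In the windows of Lamb1 and Lamc1 none of 41 was called, with log2 estimates from -1.01 to 0.78, and 1 at Lamc1 was called lower without the larger XEN library. XEN values also differed by chromosome. Against d4, the median log2 change of all regions was 0.22 on chromosome 8, which carries the collagen genes, -0.23 on chromosome 4 (Hspg2), -0.30 on chromosome 11 (Sparc), -0.12 on chromosome 12 (Lamb1) and -0.16 on chromosome 1 (Lamc1). With each library centred on its chromosome medians, an alternative added after the data were seen, the collagen window still had 14 regions lower that of Hspg2 5 and that of Sparc 1, while Lamb1 and Lamc1 had none. The difference between windows was not itself tested: with 2 libraries against 2, an exact permutation test cannot go below p = 0.333.

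**Figure D5:**
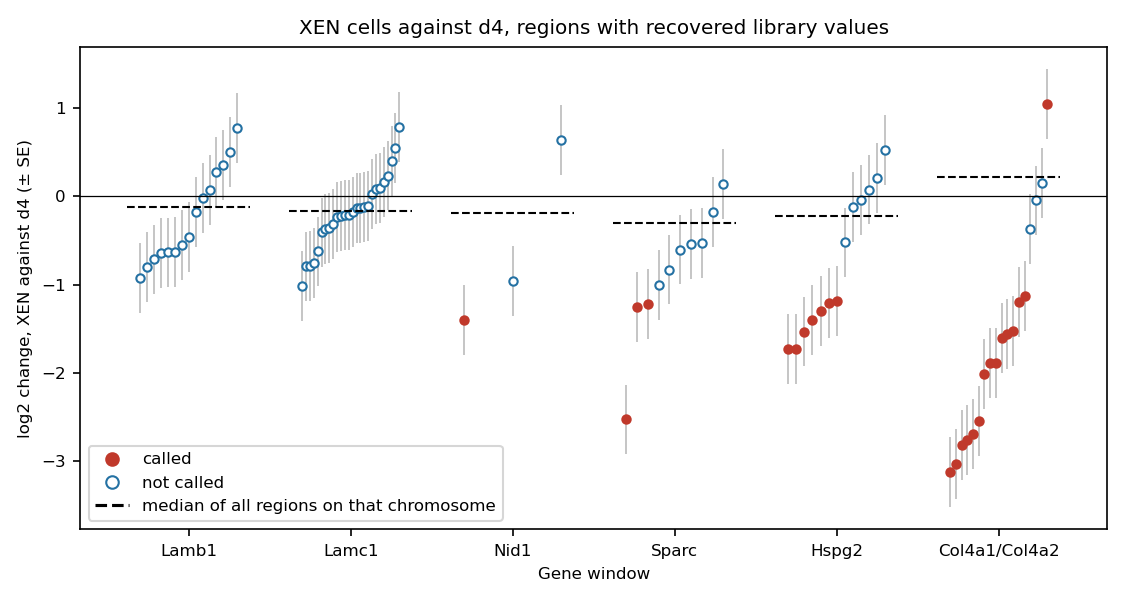
Log2 change of XEN cells against d4 (limma estimate ± SE) for the 85 regions with recovered reads, by window; filled points are called, open points are not, and dashed lines are the median of all regions on the chromosome. In the Col4a1/Col4a2 window 14 of 18 points are called lower, and none of the 41 in the Lamb1 and Lamc1 windows is.

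At Col4a1/Col4a2 +3.4 kb the XEN libraries had 0.513 and 0.277 RPM, a log2 change of -3.03 ± 0.40 from d4 (limma, adjusted p = 4.5e-11). Col4a1/Col4a2 -2.9 kb had 0.146 and 0.185 RPM (-2.69 ± 0.40, adjusted p = 5.8e-09 by limma), and Col4a1/Col4a2 -4.7 kb 0.128 and 0.139 RPM (-3.13 ± 0.40, adjusted p = 9.8e-12 by limma). These values are within or below the range of the libraries of 8h. By contrast, Col4a1/Col4a2 -54.8 kb had 0.534 and 0.485 RPM, within the range of d4 (limma, log2 change -0.05 ± 0.40, adjusted p = 0.95). Col4a1/Col4a2 -59.4 kb was the only region higher in XEN cells, at 0.243 and 0.208 RPM against 0.0904 and 0.0962 RPM at d4 (limma, log2 change 1.05 ± 0.40, adjusted p = 0.045), and it was not called after centring on chromosomes or without any 1 of the 4 libraries. Hence within the collagen window the 11 regions in Col4a1 and the 3 in Col4a2 within 8.9 kb of the shared start were lower in XEN cells, and 4 regions from 54.8 to 72.6 kb into Col4a2 were not lower. The window took 12.2 to 17.4% of the reads of the 85 regions at 8h, 24.3% and 24.2% at d4 and 11.4% and 10.8% in XEN cells.

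Sparc -11.1 kb had 0.0555 and 0.0923 RPM in XEN cells (limma, log2 change from d4 -2.53 ± 0.40, adjusted p = 6.5e-08). Nid1 -4.6 kb (-1.40 ± 0.40, limma, adjusted p = 0.0047), Hspg2 -95.6 kb (-1.73 ± 0.40, adjusted p = 0.00035) and Hspg2 +1.6 kb (-1.30 ± 0.40, adjusted p = 0.01) were also lower. Each of these calls was lost without 1 library: that of Nid1 -4.6 kb without the smaller XEN library (-1.14) or the second of d4 (-1.27), that of Hspg2 -95.6 kb without the larger XEN library (-1.29), and that of Hspg2 +1.6 kb without the smaller XEN library (-0.81) or either of d4. Regions named for the largest change from d0 to d4, here and in the collagen window, were chosen in part for high values at d4. Their falls from d4 to XEN cells may thus come out too large. At the laminin regions the estimates were smaller and not called. Lamc1 -23.2 kb had 0.905 and 0.808 RPM (limma, log2 change -0.79 ± 0.40, adjusted p = 0.15), and Lamb1 -91.8 kb 0.257 and 0.254 RPM (-0.93 ± 0.40, adjusted p = 0.081 by limma). Lamb1 -2.7 kb had 0.857 and 0.716 RPM against 0.879 and 0.716 RPM at d4. In the averages, Lama1 -43.1 kb had 1.35 RPM at d4 and 1.38 RPM in XEN cells, and Nid2 +12.5 kb 0.346 and 0.351 RPM. These single regions do not stand for their windows. The median log2 change from d4 to XEN cells in the averages was -0.60 for Lama1, -0.47 for Lamb1, -0.17 for Lamc1 and -0.003 for Nid2. It was -1.70 in the collagen window, -1.17 for Hspg2, -0.88 for Nid1, -0.70 for Sparc and -0.094 over all regions.

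Other loci of the pathway were counted in the same way, within 100 kb of each start, by averages at d4 against d0. Over all regions 31% were more than 2-fold higher and 7.27% lower, and in the test of d4 against 8h 30.5% rose and 6.57% fell. For the enzymes and chaperones that fold and export collagen (15 genes, 96 regions), 54.2% of regions were more than 2-fold higher and 3.12% lower. P4ha2, a subunit of the collagen prolyl hydroxylase, had 6 of its 9 regions higher, the lysyl hydroxylase genes Plod3 and Plod1 had 6 of 9 and 1 of 9, and Colgalt1, a collagen galactosyltransferase, 1 of 10. In the limma test of d4 against 8h, 43 of their 86 recovered regions rose and 4 fell. Other glycoproteins and proteoglycans (16 genes, 97 regions) had 35.1% higher and 6.19% lower, with 8 of 13 higher at Tinagl1 and 0 of 11 at Fn1, and in the test 27 of 73 rose and 3 fell. Receptors (12 genes, 95 regions) had 23.2% higher and 12.6% lower, and in the test 12 of 47 rose and 4 fell. At Itga6, the alpha chain of laminin-binding integrins, 0 of 19 regions were higher and 7 lower, while 3 of 14 were higher at Itga3 and 5 of 14 at Sdc4. The other basement membrane collagens had few regions (15 at 4 genes of 6), of which 2 were higher and 7 lower, 6 of the latter among the 10 at Col18a1, and in the test 2 of 15 rose and 7 fell.

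Loci of the cell types that a culture can hold were counted too, against the same 31% higher and 7.27% lower of all regions. Around 8 endoderm genes 82 of 118 regions were more than 2-fold higher at d4 and 3 lower, with 18 of 27 higher at Foxa2 and 19 of 22 at Gata4, and in the test 17 of 28 rose. Around 8 pluripotency genes 17 of 84 were higher and 18 lower, with 4 higher and 5 lower of 21 at Nanog and 6 and 2 of 18 at Klf4, and in the test 16 of 65 rose and 10 fell. Around 8 fibroblast genes, which could report feeder cells, 6 of 33 were higher and 2 lower, with 0 of 8 higher at Col1a1 and 3 of 7 at Pdgfrb, and in the test 4 of 22 rose and 3 fell. The summed accessibility of the fibroblast list was 4.41 RPM at d0, 7.99 RPM at d2, 6.34 RPM at d4 and 6.49 RPM in XEN cells. Basement membrane genes are also expressed by fibroblasts, and the part of feeder cells in the results was not tested.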

How the data were processed

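ATAC-seq was available for 20 samples in 7 groups, taken from the sample titles. By the study's methods and the submitters' processing notes, reads were trimmed (cutadapt), aligned to mm10 (Bowtie2), filtered (SAMtools), restricted to short fragments and counted in GATA6 peaks. The deposited accessibility values are RPM, scaled to library size and averaged by the authors over the libraries of a group, and not divided by region width. The low values show that 1 read was added per region and library, and this read is included in the reads given. The deposited motif score is the authors' FIMO score for the best match, and the deposited classes were used as given. The table had 105 columns, and 52 columns of other assays or data sets were not used.

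Whole reads per library were recovered at 24999 regions whose averages kept full precision, by solving each average for whole reads of 2 or 3 libraries with a tolerance of 1e-09 reads. All solutions were unique, and the search was tested on simulated data. The planned tests assumed replicate columns. Since d0 gave no solution, 8h was the baseline. Library letters are tied to no label. By the study's methods the libraries of a group came from separate cultures. Tests used limma 3.58.1 in R 4.3.3 on log2(RPM + 0.03) over all 16 libraries with Benjamini-Hochberg adjustment over all recovered regions. On this scale the log2 changes of weak regions come out too small. Centred values had each library's median subtracted. Sequences came from the RefSeq genome GRCm38.p6 and gene positions from GENCODE vM21. Region positions are as deposited.

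The genes and lists were chosen with earlier results of these data known. The regions named were, in each window, that nearest the start, that with the highest mean over the 7 columns and that with the largest absolute log2 change from d0 to d4; others were named after their values were seen. For each list of other genes, those with the most regions were named, ties included. The list of other laminin chains is not reported here. Alternatives were 2 other pseudocounts, median centring, quantile normalisation, a filter on the mean, 2 other windows, subtraction of the lowest value, a trend in the limma fit, a fit of the groups compared alone and leaving out each library.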

Additional observations from a re-analysis of the deposited data

How the results depend on the processing

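No paired analysis was possible because the averaged columns carry no replicate number and the recovered libraries match no label. The numbers below count basement membrane regions past the threshold in either direction. Chromosome centring and leaving out the Col4a1/Col4a2 window were chosen after the data were seen. For d1 against 8h, 6 regions became 3 and 0 with pseudocounts of 0.006 and 0.15 RPM, 0 with median centring and 0 with quantile normalisation, and 0 to 14 without 1 library. With these pseudocounts 5.16% and 0.62% of all regions were higher, and with median centring and quantile normalisation 1.36% and 1.18%. For d2 against 8h, 40 became 22 with median centring, 15 with quantile normalisation and 24 with chromosome centring. Without the collagen window the count was 25 of 67. Of the 15, 11 were higher and 4 lower, with 11.6% and 10.3% of all regions doing so. Of the 24, 20 were higher and 4 lower, with 14% and 13.5% of all regions doing so. For d4 against 8h, 37 became 61 with a window of 200 kb, 21 with a pseudocount of 0.15 RPM and 24 of 67 without the collagen window. With median centring, quantile normalisation and chromosome centring it became 22, 21 and 23. With that pseudocount 13.9% of all regions were higher and 1.94% lower. With quantile normalisation 19 of the 85 were higher and 2 lower, with 16.3% and 15.7% of all regions doing so. With chromosome centring 21 were higher and 2 lower, with 16.2% and 15.6% of all. For d4 against d2, 1 became 4 with 200 kb, 0 with either pseudocount, 3 with median centring and 3 with quantile normalisation, 0 with a mean of at least 0.1 RPM and 0 to 1 without 1 library. For XEN cells against d4, 26 became 11 without the collagen window and 16 to 24 without 1 library. In the averages against d0, 7 at d1 became 13 and 0 with pseudocounts of 0.006 and 0.15 RPM and 0 with either scaling. At d2, 58 became 28 with median centring and 21 with quantile normalisation. At d4, 58 became 88 with 200 kb, 35 with 0.15 RPM, 38 with median centring and 34 with quantile normalisation. In XEN cells, 33 became 10 with 0.15 RPM, and their split of 30 higher and 3 lower became 9 and 13 with median centring and 17 and 11 with quantile normalisation. The causes were not tested, beyond fewer or more regions or libraries entering where a window or library changed. For d4 against d2, no region was higher and 1 other was lower without the first d2 library. The changes of the named regions kept their direction and their side of the threshold in 327 alternative values, were no longer called in 36, became called in 4, and changed sign without being called in 6. Weak regions are limited by depth, above all in the smaller XEN library, where 1 read equals 0.0231 RPM.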
